A study of Mus musculus with 4 samples.

Results

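The transcripts described here encode actin and the proteins that assemble, cut, cap, branch, crosslink and pull on its filaments, together with the small GTPases and linkers through which a moving T cell steers them. They are 52 genes taken by symbol from the 23990 gene symbols of the expression tables, picked by name for their place in actin turnover and cell movement. Earlier results of these data were known when the list was made, so it is not independent of them. The cells were effector CD4 T cells (CD44+CD4) sorted by flow cytometry from wild type mice, strain C57BL/6 (C57BL/6J in the Methods), with EAE, a mouse model of MS induced with MOG peptide in complete Freund's adjuvant and pertussis toxin. They were taken at disease onset from the spinal cord (CNS) or from pooled cells of draining lymph nodes (dLN), and RNA-seq was run on 2 libraries per tissue. The Methods state that sorted cells were stimulated with PMA and ionomycin before RNA isolation, whereas the sample labels name no stimulation and describe RNA taken from freshly sorted cells, so which of these the values represent is uncertain. The age of the mice was not used here, and no source says that the libraries of a tissue came from separate mice, so p-values measure only the spread between these samples, which may be technical.

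Actin monomers join filaments mostly at one end and leave at the other, and cells set this turnover by storing monomers on thymosins, feeding them to growing ends with profilin, capping ends, and cutting old filaments with cofilin. The Arp2/3 complex, switched on by WASP and WAVE proteins below Cdc42 and Rac, starts new branches that push the leading edge forward, while myosin II pulls the rear of the cell along. A T cell crawls, crosses a vessel wall and squeezes through tissue with this machinery, and also builds with it the contact to a cell that presents antigen.

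The libraries stood apart in other ways besides tissue. The authors deposited the values of each tissue in a separate table, so a difference in how the tables were made cannot be told apart from tissue. The Y-linked gene Ddx3y was at 12.7 and 11.2 FPKM in CNS against 0 and 0 FPKM in dLN, and Xist at 0 and 0.00260 FPKM in CNS against 26.6 and 22.3 FPKM in dLN, so tissue and the sex of the mice cannot be told apart. CNS replicate 2 held more transcripts of myeloid cells than CNS replicate 1, with the neutrophil gene S100a8 at 101 and 0 FPKM, so key counts are also given without it. The 20.5 M and 21.6 M fragments of the CNS libraries and the 18.2 M and 21.6 M of the dLN libraries were close in number.

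The actin machinery was more abundant in CNS than in dLN effector CD4 cells across most of its roles. Levels are FPKM (sequenced fragments corrected for transcript length and library depth), summed over the transcripts of a gene and given for replicates 1 and 2 in that order. Together the 52 genes made up 6.47% and 6.24% of the summed FPKM of all genes with a symbol in the CNS libraries and 2.78% and 2.37% in the dLN libraries. Their summed mean FPKM, CNS over dLN, had a ratio of 2.83, or 2.36 without the most abundant gene, Tmsb4x. That ratio is of FPKM and not of shares. The FPKM of all genes with a symbol also summed to more in CNS (575728 and 604123) than in dLN (515287 and 512731). The largest differences were in the filament elongation factor Evl, the membrane myosin Myo1f, the blood-cell GTPase Rac2, the thymosins Tmsb10 and Tmsb4x and the coronin Coro1a, while radixin (Rdx), Arpc1a, alpha-actinin 1 (Actn1) and L-plastin (Lcp1) were lower in CNS. In such bulk samples, fewer cells of a type and less RNA per cell cannot be told apart.

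Genes whose mean reached 1 FPKM in at least 1 tissue were compared with limma on log2(FPKM + 1), and a gene was called when its Benjamini-Hochberg adjusted p over all 10634 tested genes was under 0.05. All 52 genes passed the filter on low values, and 36 of them averaged 100 FPKM or more in a tissue. Of the 52, 46 (88.5%) were called in either direction, as were 74.9% of all tested genes. Of the 52 genes, 42 (80.8%) were called higher in CNS, against 37.8% of all tested genes, and 4 (7.69%) were called lower, against 37.2%. With a 2-fold minimum, 26 were higher, against 21% of tested genes, and 1, Rdx, was lower, against 18.2%. For 44 genes (84.6%) both CNS libraries lay above both dLN libraries, which held for 45.7% of tested genes, and for 5 both lay below, which held for 43.7%. Among the 6410 tested genes that averaged 10 FPKM or more in a tissue, 38.2% were called higher and 43.7% lower. The shares over all tested genes also stand beside the counts of single roles, which rest on 1 to 9 genes. Since the list was made with earlier results of these data known, its contrast with all tested genes is a description.

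The median log2 ratio of the 52 genes was 0.99, against 0.05 over all tested genes and -0.09 over those averaging 10 FPKM or more, and single genes ran from -1.03 (Rdx) to 3.57 (Evl). Ratios on the log2(FPKM + 1) scale understate the change of low genes. How the libraries are scaled moves every ratio: the median of all tested genes shifted by -0.17 when each library was set to the same sum of FPKM and by 0.12 when each was set to the same upper quartile, and the median of the 52 genes was then 0.79 and 1.12.

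**Figure D1:**
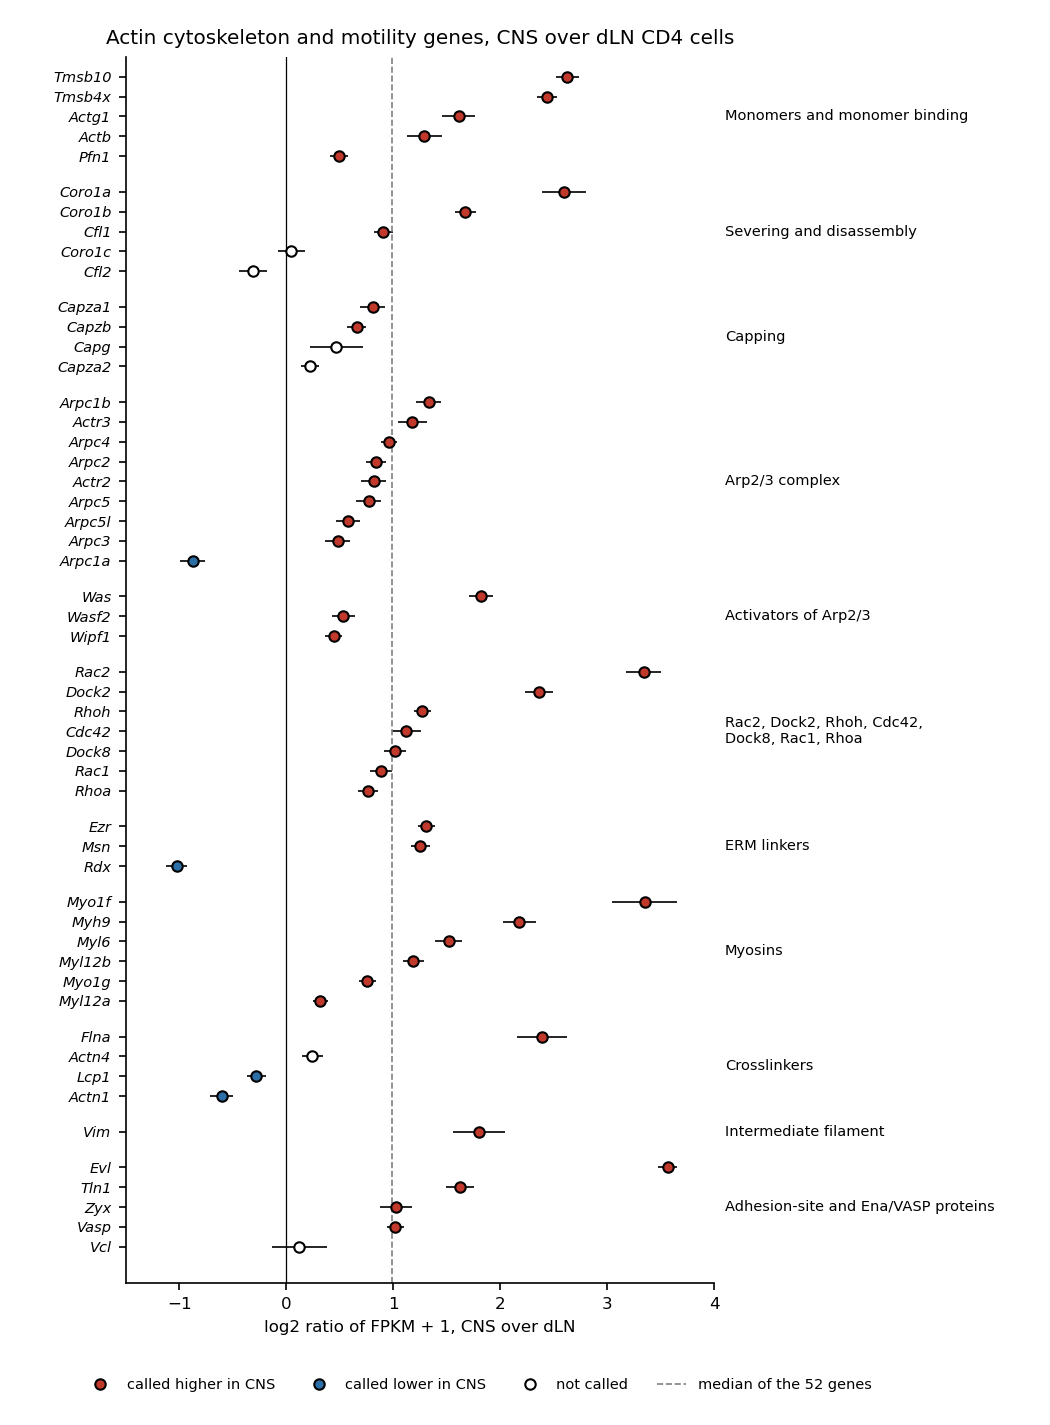
Log2 ratio of FPKM + 1, CNS over dLN, of each of the 52 genes, grouped by role; points are limma estimates from 2 libraries per tissue, bars are 1 SE, the fill gives the call and the dashed line is the median of 0.99. Most points lie right of 0, and the 4 genes called lower are Rdx, Arpc1a, Actn1 and Lcp1.

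**Figure D2:**
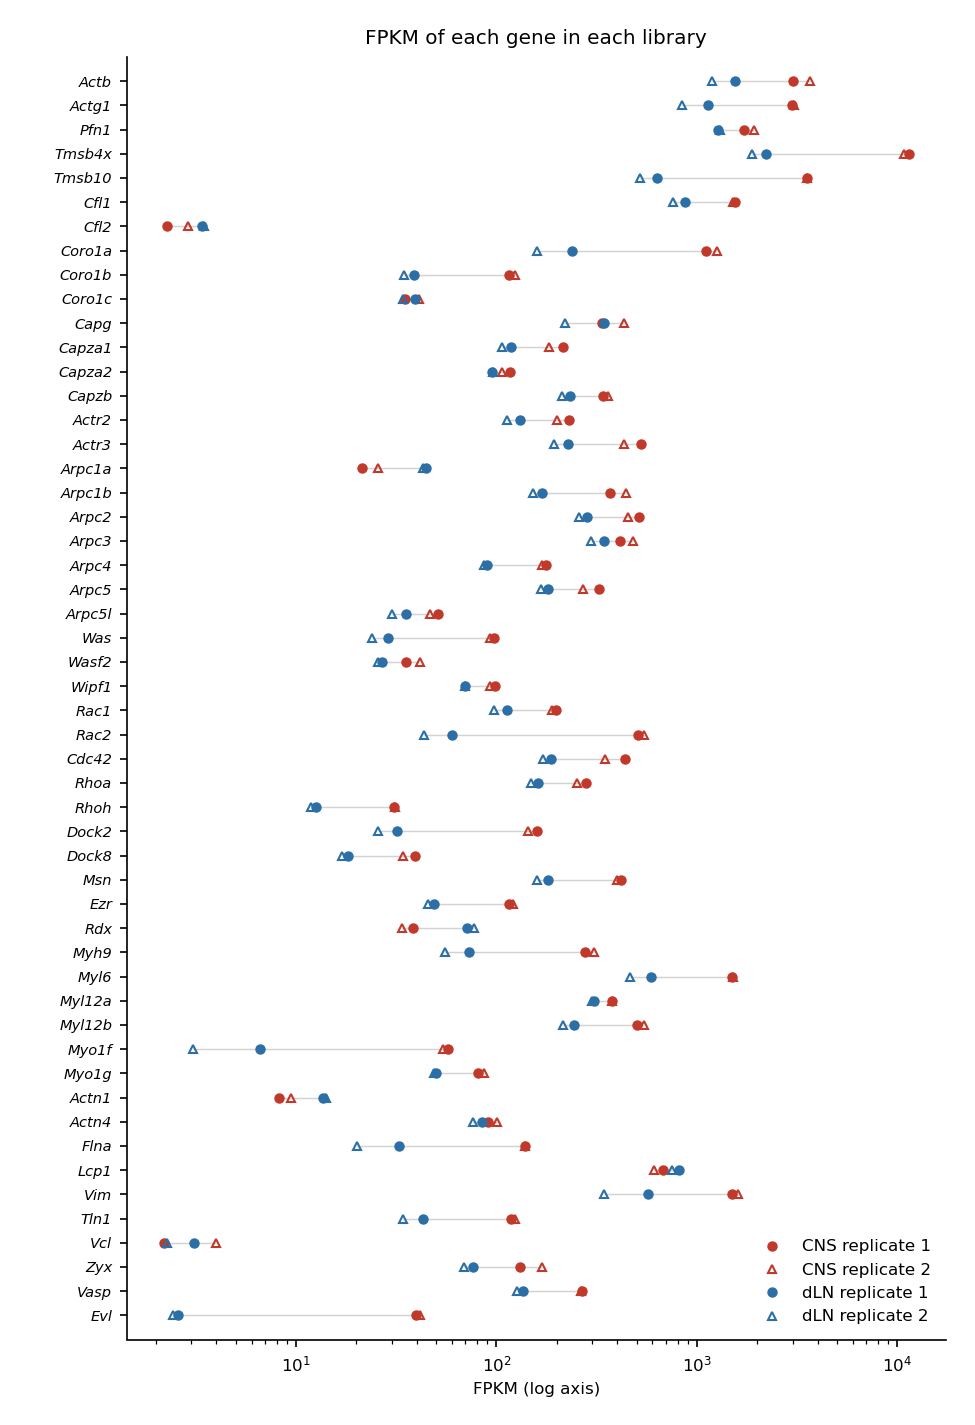
FPKM of each of the 52 genes in each of the 4 libraries, on a log axis, with the CNS libraries in red and the dLN libraries in blue. Levels run from 2.19 FPKM for Vcl to 11363 FPKM for Tmsb4x, and the red and blue symbols overlap for Coro1c, Capg and Vcl.

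Marker genes of cell types were read beside these results. The 9 CD4 T cell markers summed to 3613 and 3615 FPKM in CNS against 1217 and 1087 FPKM in dLN, with 7 called higher in CNS, Thy1 the most abundant, and Cd5 and Cd44 called lower. The coreceptor Cd4 was at 502 and 531 FPKM in CNS against 82.0 and 66.7 FPKM in dLN. Cd44, on which the cells were sorted, was at 112 and 112 FPKM in CNS against 176 and 157 FPKM in dLN. The summed T cell markers were thus higher in the same libraries as the actin genes, and their part in the result was not tested. The 14 macrophage and microglia markers summed to 60.7 and 268 FPKM in CNS against 8.53 and 6.30 FPKM in dLN, with 7 called higher, Lyz2 the most abundant (3.22 and 92.1 FPKM in CNS) and 7 listed at 0 in both dLN libraries. The 8 neutrophil markers found summed to 1.30 and 213 FPKM in CNS against 0.0440 and 0.0177 FPKM in dLN, with S100a8 the most abundant (101 FPKM in CNS replicate 2, and at 0 elsewhere) and Elane listed at 0 throughout.

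These myeloid markers differed between the CNS libraries, and their part in the result was not tested. In CNS replicate 2, 12 of 14 macrophage and 7 of 8 neutrophil markers were higher than in CNS replicate 1. Of the 52 actin and motility genes, 29 were higher in CNS replicate 2 and 23 lower. Their median difference was 0.01, with a range of -0.34 to 0.64 log2 units. Without CNS replicate 2, 42 genes were called higher, beside 34.2% of all tested genes in that fit, and the median log2 ratio was 0.96, beside 0.02. Between the dLN libraries, 47 of the 52 genes were lower in replicate 2, with a median of -0.16. Of the 52 genes 4 are on the X chromosome, Tmsb4x, Was, Msn and Flna, and all 4 were called higher in CNS. That stands beside 80.8% of the 52 genes and 37.8% of all tested genes, and the share among all X-linked genes was not computed.

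The other marker lists summed to under 60 FPKM in every library. B cell markers (6, led by Cd79b) summed to 1.22 and 1.76 FPKM in CNS against 0.441 and 0.258 FPKM in dLN, and dendritic cell markers (5, led by Itgax) to 7.67 and 14.5 FPKM in CNS against 3.21 and 2.11 FPKM in dLN. CD8 T and NK cell markers (5, led by Cd8b1) summed to 6.42 and 9.76 FPKM in CNS against 3.50 and 3.40 FPKM in dLN, and endothelial and stromal markers (8, led by Pecam1) to 22.3 and 27.7 FPKM in CNS against 12.2 and 9.85 FPKM in dLN. Glial and neuronal markers (10) summed to 49.98 and 50.1 FPKM in CNS against 56.0 and 58.1 FPKM in dLN, nearly all from Mbp. The other 9 of these were higher in CNS as a sum, at 1.40 and 5.58 FPKM against 0.5001 and 0.397 FPKM in dLN, and the astrocyte gene Gfap was at 0.655 and 2.51 FPKM in CNS against 0 and 0 FPKM in dLN (log2 ratio 1.27, SE 0.382, adjusted p = 0.0312). Erythroid markers (5, led by Hba-a2) summed to 0.112 and 4.55 FPKM in CNS against 0.0617 and 0.0517 FPKM in dLN. The part of these cell types in the result was not tested.

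**Figure D3:**
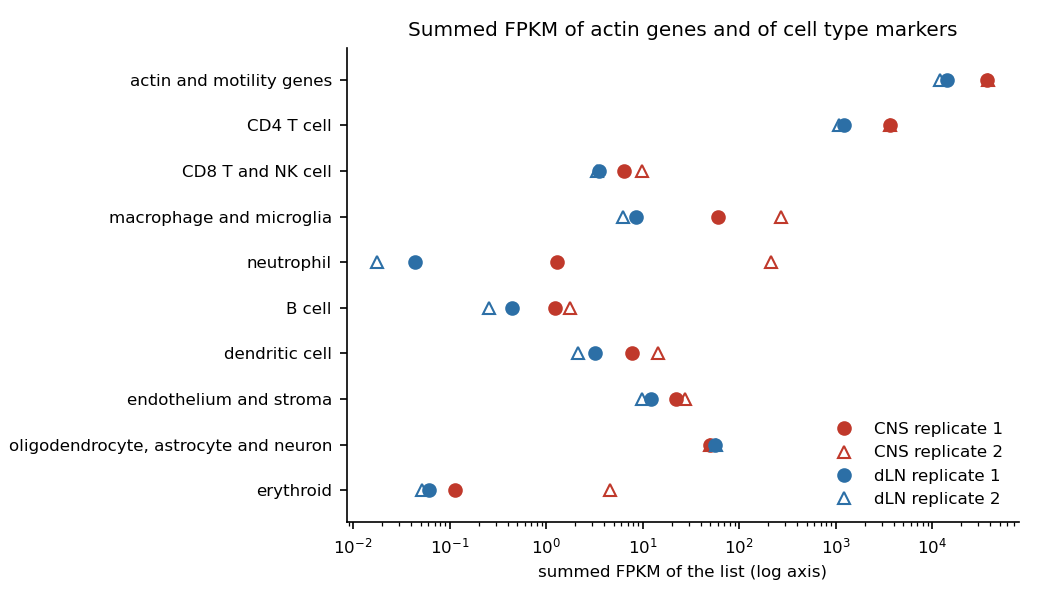
Summed FPKM of the 52 actin and motility genes and of 9 lists of cell type markers in each of the 4 libraries, on a log axis (CNS in red, dLN in blue; circles replicate 1, triangles replicate 2). The macrophage and neutrophil sums differ between the CNS libraries (60.7 and 268 FPKM, 1.30 and 213 FPKM). The sums of the actin and motility genes in the CNS libraries are 37254 and 37714 FPKM.

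The proteins that form or bind actin monomers held the largest share of the RNA. Tmsb4x, which encodes the main monomer-storing thymosin (chrX:167207094-167209218, mouse build mm10), was at 11363 and 10755 FPKM in CNS against 2206 and 1882 FPKM in dLN (log2 ratio 2.44, SE 0.0961, adjusted p = 9.01e-05). It was the most abundant gene of both CNS libraries, at 1.97% and 1.78% of the FPKM of genes with a symbol, and ranked 29 and 49 in the dLN libraries. Its relative Tmsb10 was at 3554 and 3543 FPKM in CNS against 629 and 522 FPKM in dLN (log2 ratio 2.63, SE 0.106, adjusted p = 9.15e-05), and the CNS replicates of this gene were close to each other while each dLN library lay far below. Actb, cytoplasmic beta-actin, was at 3005 and 3668 FPKM in CNS against 1551 and 1187 FPKM in dLN (log2 ratio 1.29, SE 0.166, adjusted p = 0.00170). Cytoplasmic gamma-actin, Actg1, was at 2966 and 3033 FPKM in CNS against 1141 and 842 FPKM in dLN (log2 ratio 1.61, SE 0.154, adjusted p = 0.000629). Beta-actin is a common reference gene of PCR assays, and the ratio of its mean FPKM, CNS over dLN, was 2.44. For both actins the dLN libraries differed from each other more than for the thymosins, with replicate 2 the lower, and no dLN value reached a CNS value. Profilin 1 (Pfn1), which hands monomers to growing ends, was at 1709.8 and 1916 FPKM in CNS against 1274 and 1297 FPKM in dLN (log2 ratio 0.49, SE 0.0807, adjusted p = 0.00389). Its difference was the smallest of the 5 genes of this role, and with quantile normalization it was no longer called (adjusted p = 0.315, range 0.00115 to 0.315 over 13 alternatives of the processing). Beta- and gamma-actin are nearly identical proteins, and the thymosins have close copies in the genome, so how the authors' program split shared reads among them is uncertain.

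Among 47 genes with a RefSeq promoter window, Actg1, Myl6, Arpc4 and Vcl held a CArG box, the textbook binding element of serum response factor (SRF), which with its actin-sensing MRTF cofactors drives many actin genes. The windows are on mouse build GRCm38.p6, from 250 bases before to 50 after a transcript start. The box is a motif of 10 bases whose pattern reads the same on both strands, so both were searched, and 4 of 47 is 8.51%, against 1.81% of the 27025 genes with a window and 1.53% of the 8551 tested genes with a window. The 4 windows are shown since they belong to genes with unlike differences: the log2 ratio was 1.61 for Actg1, 1.52 for the myosin light chain Myl6, 0.96 for the Arp2/3 subunit Arpc4, and 0.12 for vinculin (Vcl), which was not called. Capitals mark the box; a match describes the letters of the window and is neither a shown site nor a cause. The Actg1 window is chr11:120348446-120348745 on the minus strand with 80 bases between the box and the start, that of Myl6 is chr10:128492960-128493259 on the minus strand with 40 bases, that of Arpc4 is chr6:113377863-113378162 on the plus strand with 240 bases, and that of Vcl is chr14:20929148-20929447 on the plus strand with 217 bases. The Myl6 window belongs to an annotated start 816 bases downstream of that of the one Myl6 transcript measured, and the Myl6 window nearest to the measured start held no box, so the Myl6 ratio is not that of a transcript from this start. The starts of the other 3 windows lay at most 35 bases from a measured start. Actb, Arpc5l, Coro1b, Rac1 and Rac2 had no window in the table used.
Actg1: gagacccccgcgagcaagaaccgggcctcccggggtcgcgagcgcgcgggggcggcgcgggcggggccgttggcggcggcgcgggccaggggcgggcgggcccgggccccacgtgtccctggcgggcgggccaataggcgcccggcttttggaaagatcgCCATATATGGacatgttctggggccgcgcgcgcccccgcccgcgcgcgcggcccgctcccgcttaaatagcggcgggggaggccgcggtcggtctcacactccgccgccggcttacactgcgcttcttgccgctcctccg
Myl6: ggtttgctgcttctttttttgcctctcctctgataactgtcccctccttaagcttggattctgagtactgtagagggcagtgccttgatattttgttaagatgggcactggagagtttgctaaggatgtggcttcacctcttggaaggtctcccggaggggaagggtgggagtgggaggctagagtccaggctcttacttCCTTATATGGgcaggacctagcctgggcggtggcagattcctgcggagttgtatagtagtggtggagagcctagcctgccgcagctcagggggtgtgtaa
Arpc4: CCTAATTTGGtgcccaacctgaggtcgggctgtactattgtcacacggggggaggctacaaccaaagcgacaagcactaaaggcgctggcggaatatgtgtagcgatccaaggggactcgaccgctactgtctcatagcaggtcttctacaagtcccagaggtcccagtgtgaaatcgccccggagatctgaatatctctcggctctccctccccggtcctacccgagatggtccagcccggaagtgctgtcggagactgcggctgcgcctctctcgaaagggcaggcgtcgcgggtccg
Vcl: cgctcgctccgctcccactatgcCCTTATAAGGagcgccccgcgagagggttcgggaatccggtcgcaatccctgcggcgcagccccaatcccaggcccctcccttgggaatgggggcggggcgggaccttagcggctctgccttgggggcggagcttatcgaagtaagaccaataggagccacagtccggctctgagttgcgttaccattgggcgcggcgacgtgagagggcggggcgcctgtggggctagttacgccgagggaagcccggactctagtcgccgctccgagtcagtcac

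SRF itself, of which actin dynamics is a known regulator, was lower in CNS, unlike most of the genes. Srf was at 18.0 and 22.2 FPKM in CNS against 30.6 and 29.4 FPKM in dLN (log2 ratio -0.56, SE 0.124, adjusted p = 0.0109). Its cofactor gene Mkl1 (MRTF-A) was at 16.2 and 19.4 FPKM in CNS against 7.46 and 7.34 FPKM in dLN (log2 ratio 1.15, SE 0.116, adjusted p = 0.000743). Mkl2 (MRTF-B) was low, at 2.999 and 3.26 FPKM in CNS against 1.83 and 1.49 FPKM in dLN (log2 ratio 0.63, SE 0.129, adjusted p = 0.00835). In each of the 3 genes the tissues did not overlap, with Srf lower and both cofactor genes higher in CNS. Lack of overlap was common: both CNS libraries lay above both dLN libraries for 45.7% of all tested genes and below for 43.7%.

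Filament disassembly genes split by family member. Coro1a, the coronin of blood cells, which binds filaments and is needed for T cell migration and survival, was at 1114 and 1262 FPKM in CNS against 239 and 159 FPKM in dLN (log2 ratio 2.60, SE 0.208, adjusted p = 0.000376). Coro1b, a broadly expressed coronin that acts on Arp2/3 branches, was at 115 and 123 FPKM in CNS against 38.6 and 34.6 FPKM in dLN (log2 ratio 1.67, SE 0.0953, adjusted p = 0.000163). In contrast, the third family member, Coro1c, was at 34.9 and 41.1 FPKM in CNS against 39.4 and 34.2 FPKM in dLN (log2 ratio 0.04, SE 0.125, adjusted p = 0.757), and its libraries overlapped between tissues. The Coro1c ratio changed sign with equal library sums (-0.15) and without CNS replicate 2 or dLN replicate 2, so it gives no direction. Cofilin 1 (Cfl1), which cuts aged filaments, was at 1551 and 1509 FPKM in CNS against 873 and 760.4 FPKM in dLN (log2 ratio 0.91, SE 0.0901, adjusted p = 0.000716). The muscle form Cfl2 was close to the filter, at 2.28 and 2.90 FPKM in CNS against 3.41 and 3.47 FPKM in dLN (log2 ratio -0.31, SE 0.132, adjusted p = 0.0856); both CNS values lay below both dLN values, and it was called with equal sums (adjusted p = 0.0212), with quantile normalization (adjusted p = 0.0128) and without CNS replicate 2 (adjusted p = 0.0414; range 0.0128 to 0.234 over the 12 alternatives that kept it).

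Of 4 capping genes, 2 were called higher in CNS (50%), beside 37.8% of all tested genes, which is close for so few genes. Capza1, an alpha subunit of the capping protein that closes fast-growing ends, was at 215 and 182 FPKM in CNS against 119 and 107 FPKM in dLN (log2 ratio 0.81, SE 0.116, adjusted p = 0.00244). Its beta subunit partner Capzb was at 338 and 362 FPKM in CNS against 232 and 212 FPKM in dLN (log2 ratio 0.66, SE 0.0850, adjusted p = 0.00173). The other alpha subunit, Capza2, was at 117 and 106 FPKM in CNS against 94.6 and 96.6 FPKM in dLN (log2 ratio 0.22, SE 0.0851, adjusted p = 0.0672). It missed the call although its libraries did not overlap, and was called with equal upper quartiles (adjusted p = 0.0190), with quantile normalization (adjusted p = 0.0259) and without CNS replicate 2 (adjusted p = 0.0309; range 0.0190 to 0.848 over 13 alternatives). Capg, a gelsolin relative that caps ends without cutting filaments, was at 337 and 432 FPKM in CNS against 343 and 221 FPKM in dLN (log2 ratio 0.47, SE 0.245, adjusted p = 0.140). dLN replicate 1 lay between the CNS libraries, and without it the ratio was 0.79 and was called (adjusted p = 0.0298; range 0.0298 to 0.981 over 13 alternatives), whereas it was 0.15 without dLN replicate 2 and 0.29 without CNS replicate 2, not called in either case.

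The total of Capg hid a difference between its transcripts. Of the 52 genes, 14 had several transcripts in the tables, and Capg was the one gene at 10 FPKM or more on average in which a transcript's share of the gene differed by at least 10 percentage points between tissues without overlap. All 4 of its transcripts end at the same base and differ in where they start on chromosome 6. The transcript that starts at base 72549273 was at 161 and 187 FPKM in CNS and 37.7 and 28.9 FPKM in dLN, which was 47.8% and 43.4% in CNS and 11.0% and 13.1% in dLN. The one that starts at base 72549647 was at 80.5 and 113 FPKM in CNS and 223 and 137 FPKM in dLN, which was 23.9% and 26.2% in CNS and 65.0% and 61.8% in dLN. The first of these was thus the leading Capg transcript in both CNS libraries and the second in both dLN libraries. The transcript with the most upstream start, at base 72544391, was 28.2% and 30.2% in CNS and 24.0% and 25.0% in dLN of the gene. Transcript FPKM are the authors' estimates from reads that these transcripts largely share, and the difference in shares was not tested. The promoter window of the start favoured in dLN (chr6:72549397-72549696, plus strand, GRCm38.p6, no CArG box) is shown so that the choice of start can be located; all its letters are in lower case since no motif was marked.
Capg: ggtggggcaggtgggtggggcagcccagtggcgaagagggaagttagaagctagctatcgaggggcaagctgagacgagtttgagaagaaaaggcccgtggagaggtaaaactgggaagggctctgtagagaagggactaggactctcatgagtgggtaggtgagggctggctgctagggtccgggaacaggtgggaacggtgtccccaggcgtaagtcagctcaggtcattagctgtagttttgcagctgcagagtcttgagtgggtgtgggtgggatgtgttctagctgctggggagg

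**Figure D4:**
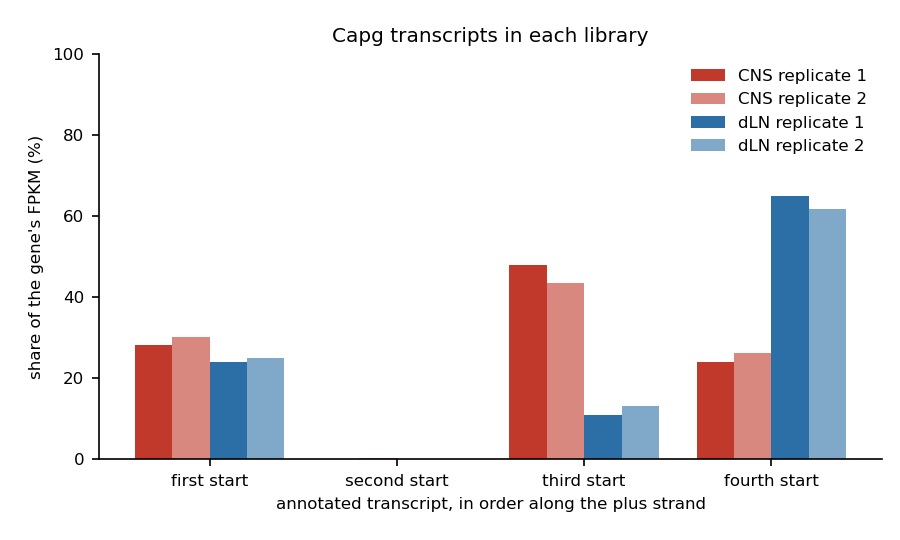
Share of the summed Capg FPKM held by each of 4 annotated transcripts, in order of their start along the plus strand, with 1 bar per library (2 CNS in red, 2 dLN in blue). The third transcript held 47.8% and 43.4% in CNS and 11.0% and 13.1% in dLN, and the fourth 23.9% and 26.2% against 65.0% and 61.8%.

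Of the 9 genes of the Arp2/3 complex, which starts filament branches, 8 were higher in CNS and 1 was lower. Actr3, an actin-related subunit that mimics the first monomer of the branch, was at 527 and 433 FPKM in CNS against 228 and 194 FPKM in dLN (log2 ratio 1.18, SE 0.135, adjusted p = 0.00115). Actr2, the other actin-related subunit, was at 231 and 200.1 FPKM in CNS against 131 and 113 FPKM in dLN (log2 ratio 0.82, SE 0.119, adjusted p = 0.00257). The subunit with the highest mean in CNS, Arpc2, was at 512 and 455 FPKM in CNS against 282 and 258 FPKM in dLN (log2 ratio 0.84, SE 0.0962, adjusted p = 0.00115), and Arpc2 forms the clamp on the mother filament with Arpc4. Arpc4 was at 176 and 168 FPKM in CNS against 89.6 and 86.2 FPKM in dLN (log2 ratio 0.96, SE 0.0766, adjusted p = 0.000374). In each of these 4 genes the lower CNS library was well above the higher dLN library. Arpc3 was at 411 and 480.2 FPKM in CNS against 342 and 297 FPKM in dLN (log2 ratio 0.48, SE 0.118, adjusted p = 0.0162), the smallest rise of the complex. Its call was lost with equal sums (adjusted p = 0.0556), quantile normalization (adjusted p = 0.0975) and without CNS replicate 2 (adjusted p = 0.0809) or dLN replicate 2 (adjusted p = 0.0935; range 0.00409 to 0.0975 over 13 alternatives).

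The complex can be built with alternative subunits, and one such pair moved apart. Arpc1b, the form that prevails in blood cells, was at 370.2 and 442 FPKM in CNS against 169 and 152 FPKM in dLN (log2 ratio 1.33, SE 0.118, adjusted p = 0.000511). Its alternative Arpc1a was at 21.3 and 25.6 FPKM in CNS against 44.4 and 43.0 FPKM in dLN (log2 ratio -0.88, SE 0.114, adjusted p = 0.00178), lower in both CNS libraries than in either dLN library. Within a library, the ratio of Arpc1b to Arpc1a was therefore 17.4 and 17.3 in CNS against 3.81 and 3.52 in dLN, which does not depend on how libraries are scaled. The other alternative pair moved together: Arpc5 was at 323 and 271 FPKM in CNS against 181 and 166 FPKM in dLN (log2 ratio 0.77, SE 0.113, adjusted p = 0.00266). Arpc5l was at 51.3 and 46.9 FPKM in CNS against 35.2 and 30.2 FPKM in dLN (log2 ratio 0.57, SE 0.112, adjusted p = 0.00720), and lost its call without CNS replicate 1 (adjusted p = 0.0558; range 0.00244 to 0.0558 over 13 alternatives). The ratio of Arpc5l to Arpc5 was 0.159 and 0.173 in CNS against 0.195 and 0.181 in dLN.

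The 3 activator genes were all higher in CNS, the blood-cell gene most. Was, which encodes WASP, the activator of Arp2/3 below Cdc42 in blood cells, was at 97.5 and 92.5 FPKM in CNS against 28.7 and 23.9 FPKM in dLN (log2 ratio 1.82, SE 0.115, adjusted p = 0.000205). Wasf2, which encodes WAVE2, the activator below Rac at the leading edge, was at 35.5 and 41.4 FPKM in CNS against 26.7 and 25.7 FPKM in dLN (log2 ratio 0.53, SE 0.106, adjusted p = 0.00780). Wipf1, whose product binds and stabilises WASP, was at 97.8 and 92.7 FPKM in CNS against 69.8 and 69.7 FPKM in dLN (log2 ratio 0.44, SE 0.0777, adjusted p = 0.00496). The differences of Wasf2 and Wipf1 were small beside that of Was, and each lost its call under 1 of 13 alternatives. Wasf2 lost it without dLN replicate 2 (adjusted p = 0.0513, range 0.00184 to 0.0513), and Wipf1 with equal sums (adjusted p = 0.0534, range 0.00178 to 0.0534).

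Rac2 and Dock2, both typical of blood cells, were higher in CNS, as were Rac1, Dock8, Cdc42, Rhoa and Rhoh. Rac2, the Rac of blood cells (chr15:78559169-78572783), was at 509 and 543 FPKM in CNS against 59.7 and 43.5 FPKM in dLN (log2 ratio 3.34, SE 0.164, adjusted p = 0.000118). Rac1, its ubiquitous relative, was at 198 and 189 FPKM in CNS against 113 and 96.8 FPKM in dLN (log2 ratio 0.89, SE 0.102, adjusted p = 0.00115). The ratio of Rac2 to Rac1 within a library was 2.57 and 2.87 in CNS against 0.531 and 0.449 in dLN, so Rac2 was the more abundant in both CNS libraries and Rac1 in both dLN libraries. Dock2, the exchange factor that loads Rac with GTP when lymphocytes follow chemokines, was at 159 and 144 FPKM in CNS against 31.9 and 25.5 FPKM in dLN (log2 ratio 2.36, SE 0.134, adjusted p = 0.000160). Dock8, an exchange factor of Cdc42 that keeps T cells intact in confined spaces, was at 39.0 and 34.3 FPKM in CNS against 18.2 and 17.0 FPKM in dLN (log2 ratio 1.02, SE 0.103, adjusted p = 0.000765). Dock2 thus differed more than Dock8, and the ratio of Dock8 to Dock2 was 0.246 and 0.238 in CNS against 0.569 and 0.665 in dLN. Cdc42, which sets cell polarity, was at 439 and 347 FPKM in CNS against 187 and 172 FPKM in dLN (log2 ratio 1.12, SE 0.135, adjusted p = 0.00137). The lower CNS value of each of these exceeded the higher dLN value. Rhoa, which drives contraction of the cell rear, was at 279 and 251 FPKM in CNS against 162 and 148 FPKM in dLN (log2 ratio 0.77, SE 0.0939, adjusted p = 0.00144). Rhoh, a GTPase of blood cells that acts in T cell receptor signalling, was at 30.8 and 31.1 FPKM in CNS against 12.5 and 11.9 FPKM in dLN (log2 ratio 1.27, SE 0.0837, adjusted p = 0.000226). The calls of these 7 genes held in all 13 alternatives, a 2-fold minimum aside.

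The ERM proteins tie membrane receptors to cortical actin, and their genes went in opposite directions. Moesin (Msn), the main ERM protein of lymphocytes, was at 416 and 399.6 FPKM in CNS against 181 and 160.1 FPKM in dLN (log2 ratio 1.25, SE 0.0913, adjusted p = 0.000296). Ezrin (Ezr) was at 116 and 121 FPKM in CNS against 48.8 and 45.3 FPKM in dLN (log2 ratio 1.31, SE 0.0837, adjusted p = 0.000211). Radixin (Rdx, chr9:52047150-52088738) was at 38.2 and 33.8 FPKM in CNS against 71.4 and 77.0 FPKM in dLN (log2 ratio -1.03, SE 0.0997, adjusted p = 0.000672), the one gene of the 52 called lower by 2-fold or more. That limit depends on scaling: the Rdx ratio was -0.89 both with equal upper quartiles and with quantile normalization. With equal sums it was -1.22, and that of Arpc1a was -1.07. Within a library, the ratio of Rdx to Msn was 0.0918 and 0.0847 in CNS against 0.394 and 0.481 in dLN, while that of Ezr to Msn was 0.278 and 0.302 in CNS against 0.269 and 0.283 in dLN and overlapped between tissues.

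All 6 myosin genes were higher in CNS. Myh9, the heavy chain of nonmuscle myosin IIA, which pulls filaments past each other, was at 277 and 306 FPKM in CNS against 72.9 and 55.2 FPKM in dLN (log2 ratio 2.18, SE 0.153, adjusted p = 0.000269). Its essential light chain Myl6 was at 1497 and 1505 FPKM in CNS against 589 and 465 FPKM in dLN (log2 ratio 1.52, SE 0.127, adjusted p = 0.000426). The regulatory light chain Myl12b was at 504 and 542 FPKM in CNS against 243 and 215 FPKM in dLN (log2 ratio 1.19, SE 0.0946, adjusted p = 0.000374), and the nearly identical Myl12a was at 375 and 379 FPKM in CNS against 307 and 298 FPKM in dLN (log2 ratio 0.32, SE 0.0684, adjusted p = 0.0103). Since these neighbouring genes on chromosome 17 encode nearly identical proteins, the split of reads between them is uncertain. The Myl12a call was lost with equal sums (adjusted p = 0.183), quantile normalization (adjusted p = 0.617) and without dLN replicate 1 (adjusted p = 0.0574) or dLN replicate 2 (adjusted p = 0.0795; range 0.00266 to 0.617 over 13 alternatives). The class I myosins link the membrane to actin. Myo1f (chr17:33555707-33607764) was at 57.3 and 54.1 FPKM in CNS against 6.60 and 3.05 FPKM in dLN (log2 ratio 3.35, SE 0.305, adjusted p = 0.000546), and the ratio of its means was 11.5. Its dLN replicate 2 minus replicate 1 was -0.906 log2 units, the widest replicate gap of the 52 genes, yet both were far below CNS. The size of the Myo1f ratio therefore depends on the dLN library: its log2 ratio was 3.81 without dLN replicate 1 and 2.90 without dLN replicate 2. Myo1g, the T cell class I myosin, was at 81.3 and 86.7 FPKM in CNS against 49.7 and 48.8 FPKM in dLN (log2 ratio 0.76, SE 0.0808, adjusted p = 0.000901). The ratio of Myo1g to Myo1f was 1.42 and 1.60 in CNS against 7.53 and 16.0 in dLN.

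Of 4 crosslinkers, 1 was called higher (25%) and 2 lower (50%), beside 37.8% and 37.2% of all tested genes, so as a group they gave no clear direction. Filamin A (Flna), which joins filaments into a flexible mesh and anchors integrins, was at 139 and 139 FPKM in CNS against 32.8 and 20.1 FPKM in dLN (log2 ratio 2.39, SE 0.231, adjusted p = 0.000658). L-plastin (Lcp1), the bundling protein of leukocytes and the most abundant crosslinker, was at 676 and 611 FPKM in CNS against 809 and 752 FPKM in dLN (log2 ratio -0.28, SE 0.0861, adjusted p = 0.0335). Lower values were thus seen in both CNS libraries for Lcp1, by a small margin. That call was lost with equal upper quartiles (adjusted p = 0.195), without a filter, without the variance trend and without CNS replicate 2 (adjusted p = 0.102), dLN replicate 1 (adjusted p = 0.182) or dLN replicate 2 (adjusted p = 0.0873; range 0.00155 to 0.195 over 13 alternatives). Alpha-actinin 1 (Actn1) was at 8.18 and 9.47 FPKM in CNS against 13.7 and 14.2 FPKM in dLN (log2 ratio -0.61, SE 0.105, adjusted p = 0.00475). The other nonmuscle alpha-actinin, Actn4, was at 90.4 and 100.1 FPKM in CNS against 84.3 and 76.6 FPKM in dLN (log2 ratio 0.24, SE 0.0976, adjusted p = 0.0752), and was called with equal upper quartiles (adjusted p = 0.0137) and with quantile normalization (adjusted p = 0.0166; range 0.0137 to 0.670 over 13 alternatives). The ratio of Actn4 to Actn1 was 11.1 and 10.6 in CNS against 6.16 and 5.41 in dLN. Vimentin (Vim), the intermediate filament protein of T cells, was at 1489.8 and 1603 FPKM in CNS against 568 and 345 FPKM in dLN (log2 ratio 1.80, SE 0.242, adjusted p = 0.00197).

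At adhesion sites, 4 of 5 genes were higher in CNS. Evl (chr12:108554720-108688515), a member of the Ena/VASP family that lengthens filaments at their growing ends, was at 39.6 and 41.4 FPKM in CNS against 2.58 and 2.42 FPKM in dLN (log2 ratio 3.57, SE 0.0884, adjusted p = 8.12e-05), with a ratio of means of 16.2. This was the largest ratio of the 52 genes, and the replicates of each tissue were close. Vasp, of the same family, was at 268 and 265 FPKM in CNS against 136 and 126 FPKM in dLN (log2 ratio 1.02, SE 0.0776, adjusted p = 0.000328). In both tissues Vasp was the more abundant of these relatives. Talin 1 (Tln1), which switches integrins on and ties them to actin, was at 118 and 123 FPKM in CNS against 42.9 and 34.3 FPKM in dLN (log2 ratio 1.62, SE 0.127, adjusted p = 0.000355). Zyxin (Zyx), which gathers at strained filaments, was at 131 and 169 FPKM in CNS against 76.7 and 68.6 FPKM in dLN (log2 ratio 1.02, SE 0.147, adjusted p = 0.00247). Vinculin (Vcl), which reinforces talin under load, was near the filter, at 2.19 and 3.97 FPKM in CNS against 3.11 and 2.26 FPKM in dLN (log2 ratio 0.12, SE 0.255, adjusted p = 0.681). Its libraries overlapped, and its ratio changed sign with equal sums, with quantile normalization and without CNS replicate 2 or dLN replicate 2.

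Related genes were set against each other within each library for 15 pairs. In 7 of them the mean log2 ratio differed by at least 1 between tissues. The widest were Myo1g over Myo1f (-2.86 log2 units, CNS minus dLN), Coro1c over Coro1a (-2.56), Rac2 over Rac1 (2.48), Rdx over Msn (-2.30) and Arpc1b over Arpc1a (2.24). Those of Dock8 over Dock2 and Cfl2 over Cfl1 were -1.35 and -1.33. The remaining pairs differed by less: Actn4 over Actn1 by 0.90, Coro1b over Coro1a by -0.90, Myl12b over Myl12a by 0.87, Capza2 over Capza1 by -0.59, Actg1 over Actb by 0.32, Tmsb10 over Tmsb4x by 0.19 and Arpc5l over Arpc5 by -0.18. For Ezr over Msn the tissues overlapped. With 2 libraries a tissue, the smallest two-sided p that exact permutation allows is 0.333, so the ratios are given as descriptions. The share of other pairs of genes that differed by as much was not computed, so the count of 7 is not read as particular to related genes. Of single tested genes, 21% were called higher in CNS and 18.2% lower by 2-fold or more.

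**Figure D5:**
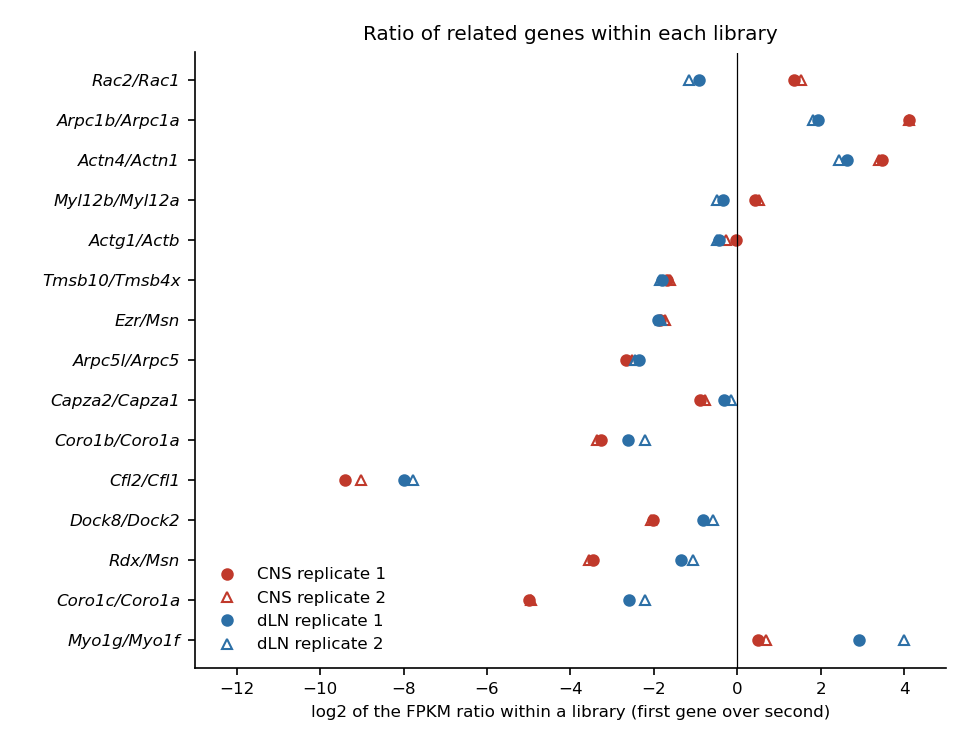
Log2 ratio of FPKM of the first over the second gene of 15 related pairs, within each of the 4 libraries (CNS in red, dLN in blue). Red and blue symbols overlap for Ezr over Msn, and Rac2 over Rac1 lies above 0 in both CNS libraries and below 0 in both dLN libraries.

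The wider actin pathway was read from a second list of genes of formins, WASP and WAVE partners, severing factors, crosslinkers, myosins, adhesion proteins and others. Of 145 such genes found, 119 passed the filter, with 69 (58.0%) called higher and 29 (24.4%) lower, beside 37.8% and 37.2% of all tested genes, and a median log2 ratio of 0.72, beside 0.05. That median was 0.44 when genes below the filter were kept. Against the same shares, 75% of 20 severing, capping and turnover genes were higher and 15% lower (median 1.17), as were 69.2% and 15.4% of 13 adhesion-site genes (1.12). The shares were 56.2% higher and 18.8% lower for 16 crosslinkers and side-binding proteins (0.60), and 53.3% and 26.7% for 15 WASP, WAVE and WASH genes with cortactins (0.54). For 9 nucleators they were 44.4% and 44.4% (0.18), and for 10 other myosins and their regulators 40% and 60% (-0.54).

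Among genes of that list that averaged 10 FPKM or more and did not overlap between tissues, the largest rise was that of Rhoc, which was at 25.7 and 26.7 FPKM in CNS against 1.61 and 0.831 FPKM in dLN (log2 ratio 3.64, SE 0.188, adjusted p = 0.000129). Rhob was at 36.2 and 47.5 FPKM in CNS against 3.36 and 3.79 FPKM in dLN (log2 ratio 3.22, SE 0.155, adjusted p = 0.000114). Both were low in every dLN library. Arhgap4 was at 41.2 and 41.8 FPKM in CNS against 3.61 and 2.90 FPKM in dLN (log2 ratio 3.32, SE 0.114, adjusted p = 8.33e-05). Arhgap9 was at 122 and 124 FPKM in CNS against 14.2 and 11.1 FPKM in dLN (log2 ratio 3.20, SE 0.132, adjusted p = 9.15e-05), and Hmha1 (Arhgap45) at 145 and 166 FPKM in CNS against 20.6 and 12.5 FPKM in dLN (log2 ratio 3.19, SE 0.241, adjusted p = 0.000326).

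By the same rule, the largest fall was that of Marcksl1, an actin-binding protein of the MARCKS family, at 11.5 and 30.4 FPKM in CNS against 197 and 234 FPKM in dLN (log2 ratio -3.44, SE 0.442, adjusted p = 0.00168). Its CNS libraries lay 1.33 log2 units apart, so the size of this fall is uncertain. The higher value was that of CNS replicate 2, which held more myeloid transcripts, and whether these had a part in it was not tested. Tiam1, an exchange factor of Rac, was at 8.86 and 10.4 FPKM in CNS against 52.4 and 50.1 FPKM in dLN (log2 ratio -2.30, SE 0.107, adjusted p = 0.000103), so it moved against Dock2. Tropomyosin 1 (Tpm1), which coats filaments, was at 11.9 and 12.5 FPKM in CNS against 47.2 and 45.8 FPKM in dLN (log2 ratio -1.85, SE 0.0834, adjusted p = 9.94e-05). Twinfilin 1 (Twf1), which binds monomers and filament ends, was at 6.12 and 7.56 FPKM in CNS against 20.9 and 19.95 FPKM in dLN (log2 ratio -1.46, SE 0.121, adjusted p = 0.000426).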

How the data were processed

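RNA from sorted CD4 cells was sequenced in 2 CNS and 2 dLN libraries. FPKM values of 33819 RefSeq transcripts on mouse build mm10 were deposited by the authors in a table for each tissue; the aligner and FPKM program are not given in the sources used here. The CNS table names both value columns in 1 header cell, and they were taken as replicates 1 and 2 in the order of the names. Tables were joined on transcript and FPKM summed per symbol, leaving out 565 transcripts without one (0.142% to 0.446% of FPKM). Steps of low FPKM values gave a depth of 20.5 M and 21.6 M fragments for CNS and 18.2 M and 21.6 M for dLN, with 92.3% to 94.5% of low values (up to 5 fragments) within 0.1 of a whole number. Genes whose mean reached 1 FPKM in a tissue were tested on log2(FPKM + 1) with lmFit and trended eBayes of limma 3.58.1 (R 4.3.3), tissue as the only term, with Benjamini-Hochberg adjustment. The depth and limma steps were tested on simulated data. Members and lists were chosen with earlier results of these data known. Full values were given for the most abundant gene and the largest ratio of each role, called genes with a log2 ratio of at least 1, and the 5 largest rises and 5 largest falls of the wider list (10 FPKM or more on average, no overlap), of which 1 is not reported here; the remaining members' values, SRF with its cofactors and the promoters and transcripts shown complete the account. Older symbols were matched by gene ID, and Ly6g was not matched. Promoters came from RefSeq (47 of 52 genes). Alternatives covered pseudocount, scaling, transcript choice, filters, a replicate block, the variance trend, a minimum fold and each library left out. Other steps used Python 3.11.15 with pandas 2.3.3, numpy 2.4.6, matplotlib 3.10.9 and scipy 1.17.1.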

Additional observations from a re-analysis of the deposited data

How the results depend on the processing

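Of the 52 genes, 39 kept their sign and side of the threshold in all 13 alternatives, a 2-fold minimum aside (36 higher, 3 lower), and 13 did not in at least 1. Over 674 values of genes under an alternative, 639 kept both, 18 lost and 9 gained the call, and 8 changed sign. The signs that changed belonged to genes that were not called: Coro1c with equal library sums (-0.15) and when single libraries were left out (-0.071 to 0.16), Capg by its most abundant transcript (-0.0070), and Vcl with equal sums (-0.026), quantile normalization (-0.10) and single libraries left out (-0.20 to 0.44). The cause was not tested.

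With a 2-fold minimum added to the call, 4168 in place of 7968 of all tested genes, 26 in place of 42 higher and 1 in place of 4 lower genes of the 52, and 11 in place of 29 lower genes of the wider list were called, as the stricter rule must give fewer. The median log2 ratio of the 52 genes was 0.79 with equal sums, where the median of all tested genes also fell by 0.17, and that of the wider list was 0.44 without the filter, which lets in low genes. Leaving out each library gave 6596 to 7363 calls, 39 to 42 higher and 3 to 4 lower of the 52, with a median of 0.93 to 1.04, each lone library being assumed to vary like the others.

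The labels share replicate numbers between tissues, but nothing says that they pair mice, and across 10634 genes the replicate differences of the tissues had a correlation of 0.0933. With the replicate block, 7828 genes were called, with 42 higher and 4 lower of the 52. A depth of 18.2 M to 21.6 M fragments limits the precision of values of a few FPKM, such as those of Cfl2 and Vcl and the dLN values of Evl and Myo1f.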
